A study of Mus musculus with 28 samples.

Results

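The 40 genes described here encode proteins that repair DNA, and they were taken by symbol from a list that covers 6 repair routes. All 40 were found among the 49585 features of a liver count table, and all 40 were among the 21583 genes tested. The table holds 28 mouse liver RNA-seq libraries, in 4 groups of 7 formed by sex (male or female) and genotype (WT or SIRT6-tg). All mice were of the strain C57BL/6JOlaHsd, were 5 to 7 months old according to the labels, and were fed standard chow. According to the study's methods, all livers were taken after a short daytime fast. No DNA-damaging agent is named in the sources used here. The SIRT6-tg mice carry extra Sirt6 throughout the body and come from a single transgenic line, which was compared with WT littermates. The promoter that drives the transgene in this line is not given in the sources used here. Each library is labelled as a separate sample, and its replicate number does not tie it to a library of another group.

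SIRT6 is a chromatin-bound deacylase and mono-ADP-ribosyl transferase that is known to be recruited to broken DNA, and its absence impairs double-strand break repair and base excision repair. Double-strand breaks are detected by the MRE11-RAD50-NBS1 complex and by the kinases ATM and ATR, and are then closed by non-homologous end joining or, after replication, by homologous recombination. Base excision repair removes damaged bases, nucleotide excision repair cuts out bulky lesions, and mismatch repair corrects replication errors. Homologous recombination needs a sister copy and so serves mainly dividing cells, whereas end joining and excision repair also serve the resting hepatocyte. The comparisons ask whether liver RNA of these genes differed between SIRT6-tg and WT mice within each sex, whether the genotype effect differed between the sexes, and whether WT males and females differed to begin with.

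The upstream sequences of the genes that differed are shown first, because Xrcc5 and Xrcc6, the partners of the Ku heterodimer, rose together and Apex1 with them. They were read from the RefSeq promoter table for GRCm38.p6, which lists 250 bases before and 50 bases after each start and held 32 of the 40 genes. Stretches that an exon of Gencode vM21 touches were left out. Capitals mark matches on either strand to GGGCGG, known as the GC box, to CCAAT, known as the CCAAT box, to TGACGT, the core of the CREB site, to the NRF1 core (GCGC, any base and then TGCGC) and to TTTNNCGC, an E2F core. No searched motif contains another. The Xrcc5 stretch is chr1:72307171-72307420 on the plus strand, up to the base before the start. The Apex1 stretch is chr14:50924894-50924948 on the plus strand and also ends at the base before the start, since the Osgep gene occupies the bases upstream of it. The Palb2 stretch is chr7:122132986-122133040 on the minus strand and ends 39 bases before the start. The starts meant here are those of RefSeq, whereas Gencode starts Apex1 at 50924968 and Palb2 at 122132985.
Xrcc5: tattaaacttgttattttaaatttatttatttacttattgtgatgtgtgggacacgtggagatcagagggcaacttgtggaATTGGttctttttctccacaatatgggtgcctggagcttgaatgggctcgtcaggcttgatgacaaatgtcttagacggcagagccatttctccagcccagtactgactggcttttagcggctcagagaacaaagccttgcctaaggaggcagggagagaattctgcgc
Apex1: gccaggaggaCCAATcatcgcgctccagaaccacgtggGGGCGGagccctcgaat
Palb2: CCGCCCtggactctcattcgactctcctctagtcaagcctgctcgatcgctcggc

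No searched motif was common to the Xrcc5, Xrcc6 and Apex1 windows, while Xrcc5 and Apex1 shared CCAAT and Xrcc6 and Apex1 shared the GC box. In the whole window of 250 bases, the Xrcc5 promoter held 1 CCAAT match, no GC box and 5 CpG pairs, with a GC content of 44.8%. The Xrcc6 window (chr15:82016119-82016368, plus strand) held 3 GC boxes, 2 E2F cores and 25 CpG pairs, with a GC content of 65.2%, and is not printed because annotated exons cover it. It lies inside the Gencode span of Xrcc6 (81987835 to 82040085), so RefSeq and Gencode place the start of this gene differently, as they do for Apex1 and Palb2. The Apex1 window held 1 GC box and 1 CCAAT match, and the Palb2 window held 1 GC box and 1 NRF1 core. Among the 32 genes with an entry, 22 (68.8%) held a GC box, against 32.7% of all 32851 promoters in the table, and 15 (46.9%) held CCAAT, against 33.8%. The NRF1 core occurred in 6 of the 32 (against 3.74% of all promoters), TGACGT in 4 (12.5%, against 6.47%) and the E2F core in 3 (9.38%, against 4.28%). The median GC content of the windows was 56.2% for these genes and 52.4% for all promoters. Each of the 32 genes was counted with 1 entry, whereas the values for all promoters count every entry in the table. These matches describe the letters and were not tested.

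The transgene was checked first. Sirt6 lay between 1.69 and 3.24 CPM (the count relative to the library's total, corrected by edgeR's TMM factor) in male WT libraries, with a median of 2.76, and between 198 and 358 in male SIRT6-tg libraries, with a median of 271. In females it lay between 1.80 and 6.21 CPM in WT, with a median of 2.53, and between 16.4 and 50.2 in SIRT6-tg, with a median of 29.6. The genotypes did not overlap in either sex, and every male SIRT6-tg library exceeded every female one. The fold was 102 in males (log2 fold change 6.68, SE 0.30, adjusted p = 1.78e-15) and 10.5 in females (log2 fold change 3.39, SE 0.26, adjusted p = 3.33e-09) in edgeR's quasi-likelihood test with Benjamini-Hochberg adjustment. Any comparison of the genotype effect between the sexes therefore also compares different levels of Sirt6 RNA.

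Total counts were 18758863 to 35393069 per library, and the lowest count of a repair gene in any library was 6. TMM factors were 1.06 to 1.17 in male WT, 0.821 to 0.993 in male SIRT6-tg and 0.906 to 1.06 in female libraries. Without such factors, the median male log2 fold change of all genes tested moved from 0.06 to −0.22, so male fold changes are also given relative to that median. In males, lists of T-cell (13 of 14), macrophage and dendritic cell (12 of 13), stellate cell (8 of 10), B-cell (6 of 10) and proliferation genes (14 of 16) held lower calls, and their median lay from −2.24 to −0.66 relative to all genes. Of 15 hepatocyte genes 7 were higher, but 0 without TMM factors (median 0.32 relative to all genes either way), and Alb was at a mean of 81115 CPM in male WT and 103540 in male SIRT6-tg. The endothelial list held 1 lower call of 10, the cholangiocyte list 0 of 9 and that of blood and other tissues 1 higher of 8. Of all genes tested, 9.68% were called higher and 11.0% lower in males. In bulk liver, fewer cells of a type and less RNA per cell cannot be told apart.

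Levels per length were compared in RPKM (CPM divided by exon length in kilobases), using the union of exons in Gencode vM21. This union is at least as long as any single transcript of a gene, so the levels and their order depend on the annotation. Averaged over the 28 libraries, they ran from 0.127 RPKM for Palb2 to 32.5 RPKM for Ddb1, with a median of 1.73. Of the 40 genes, 28 lay above 1 RPKM and 12 below. Ddb1, the large subunit of the UV-damage sensor and an adaptor of CUL4 ubiquitin ligases, stood 3.2-fold above the next gene. It was followed by the end-joining gene Xrcc5 (10.2 RPKM), the break sensor gene Nbn (9.85) and the damage-verification gene Xpa (9.63), which do not differ beyond their spread. The lowest levels were those of Palb2, the bridge between BRCA1 and BRCA2, the adenine glycosylase gene Mutyh (0.189 RPKM) and Brca1 (0.234 RPKM).

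**Figure D1:**
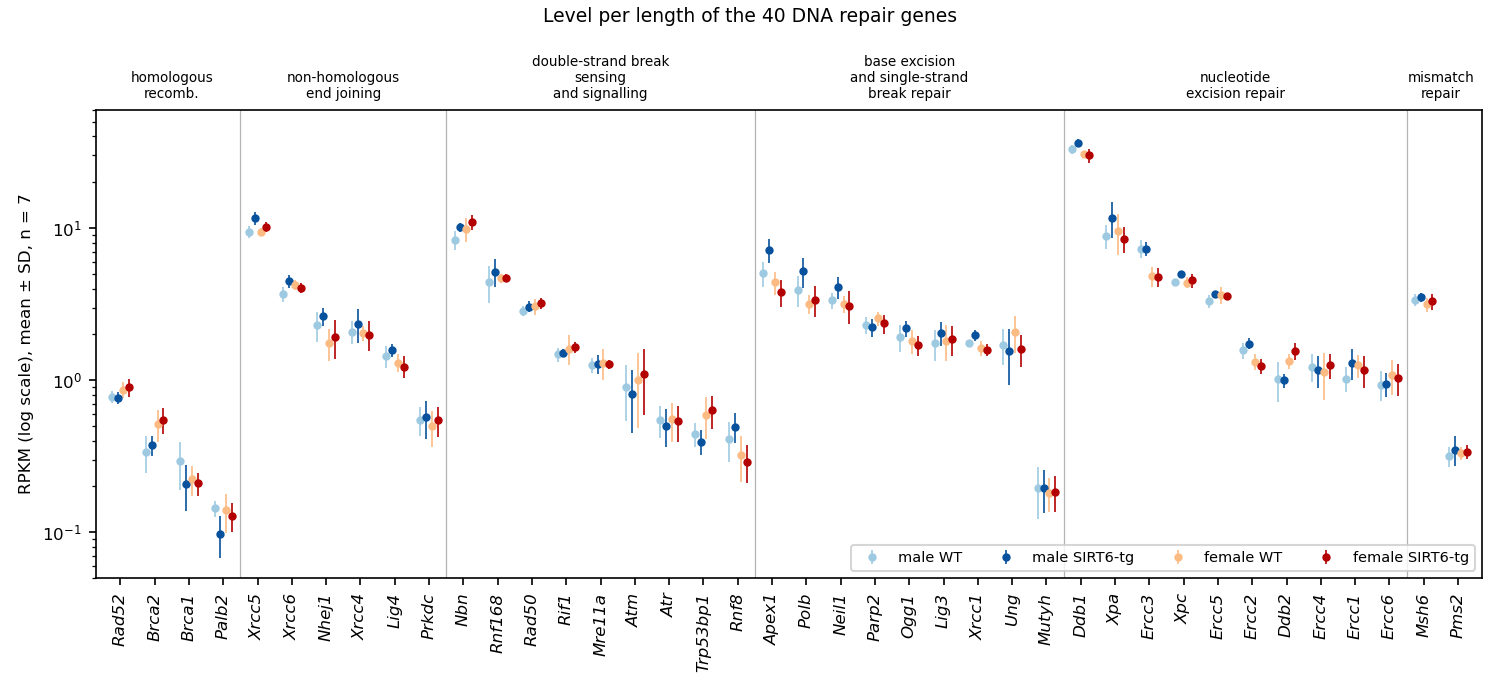
Level per length (RPKM, log axis) of the 40 DNA repair genes, grouped by repair route and ordered by level within each route. Points are group means and bars the SD over 7 libraries. Ddb1 lies at about 30.0 to 36.4 RPKM in the 4 groups, and the 4 homologous recombination genes all lie under 1 RPKM with the union of exons as length.

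Within routes, the order of levels was as follows. All 4 homologous recombination genes were under 1 RPKM, with Rad52, the annealing protein, highest at 0.828. In end joining, the Ku genes Xrcc5 (10.2 RPKM) and Xrcc6 (4.11) were followed by Nhej1 (2.15) and Xrcc4 (2.11), which encode the alignment factors, by the ligase gene Lig4 (1.39) and by Prkdc (0.539), which encodes the catalytic subunit of DNA-PK. Among the genes of break sensing, Nbn was followed by the ubiquitin ligase gene Rnf168 (4.74 RPKM) and by Rad50 (3.04), whereas the kinase genes Atm (0.953) and Atr (0.534) were lower. The order of these kinase genes rests on exon lengths of 10338 bases for Atm and 23629 for Atr. Before division by length, Atr (mean 12.6 CPM) lay above Atm (9.86). In base excision repair, Apex1, which encodes the main AP endonuclease, was highest at 5.10 RPKM, followed by Polb (3.91), the gap-filling polymerase, and Neil1 (3.42), a glycosylase. Mismatch repair was represented by Msh6 (3.33 RPKM) and Pms2 (0.333).

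In males, 4 of the 40 repair genes were called at an adjusted p under 0.05, against 20.7% of all genes tested. Xrcc5, Xrcc6 and Apex1 were higher in SIRT6-tg, where 9.68% of all genes were, and Palb2 was lower, where 11.0% of all genes were. The share of repair genes called was thus below the background of this comparison. Of all male calls 46.8% were higher, and this share was 35.7% under RLE, 26.2% under upper-quartile and 4.89% under library-size scaling. DESeq2 called the same 4 genes, and 11 had an unadjusted p under 0.05, where 32.6% of all genes had. The median log2 fold change of the 40 was 0.15, against 0.06 for all genes tested, a difference of 0.09. A positive value was seen in 28 of 40, but in 6 of 40 after scaling by library size alone, whereas 24 of 40 lay above the median of all genes under every scaling tried (TMM, RLE, upper quartile and library size alone). By route, 1 of 4 genes was called in homologous recombination (median −0.26), 2 of 6 in end joining (0.18), 0 of 9 in break sensing (0.04), 1 of 9 in base excision repair (0.19), 0 of 10 in nucleotide excision repair (0.15) and 0 of 2 in mismatch repair (0.10). The largest absolute change was 0.57 on the log2 scale, and for 24 of the 40 the 95% interval lay within ±0.5, which is a 1.41-fold change either way.

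Xrcc5, which encodes Ku80 (ENSMUSG00000026187.8, GRCm38 chromosome 1, 72307421 to 72394952, plus strand), ranged from 20.99 to 27.97 CPM with a median of 24.5 in male WT, and from 25.5 to 33.3 with a median of 29.1 in male SIRT6-tg. In 5 of 7 SIRT6-tg males it was above all 7 WT males, and the ranges overlapped. The log2 fold change was 0.31 (SE 0.08, 95% interval 0.14 to 0.47, adjusted p = 0.00545), and relative to the median of all genes it was 0.25, or 0.24 after scaling by library size alone. That scaling took the log2 fold change itself to 0.02 and ended the call (adjusted p = 0.893). In females the gene ranged from 22.1 to 26.1 CPM in WT and from 24.5 to 30.1 in SIRT6-tg, and the log2 fold change was 0.11 (95% interval −0.05 to 0.27, adjusted p = 1.00).

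Xrcc6, which encodes Ku70 (ENSMUSG00000022471.13, chromosome 15, 81987835 to 82040085, plus strand), ranged from 13.0 to 19.1 CPM with a median of 16.6 in male WT, and from 16.8 to 22.2 with a median of 20.2 in male SIRT6-tg. As for Xrcc5, 5 of 7 libraries of SIRT6-tg males exceeded every WT male. The log2 fold change was 0.29 (SE 0.08, 95% interval 0.12 to 0.46, adjusted p = 0.0132), and 0.23 relative to the median of all genes. Under upper-quartile scaling (adjusted p = 0.0733), with the sexes fitted separately (0.0763) and with library size alone (1.00, log2 fold change −0.00030, or 0.22 relative to the median) the call was lost. In females the log2 fold change was −0.06 (95% interval −0.23 to 0.11), between 17.04 and 20.99 CPM in WT and 16.9 and 20.6 in SIRT6-tg. The difference between the sexes was 0.35 (95% interval 0.11 to 0.58, adjusted p = 0.0859), and DESeq2 placed it just past the threshold (adjusted p = 0.0494).

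The ratio of the Ku genes was steady in males. Per length, Xrcc5 exceeded Xrcc6 by a geometric mean of 2.56-fold in male WT (2.38 to 2.82) and 2.59-fold in male SIRT6-tg (2.24 to 2.79), and the difference in log2 ratio was 0.02 (exact permutation test over the 14 males, two-sided, p = 0.766). The size of this ratio depends on the annotated exon lengths, 2555 bases for Xrcc5 and 4476 for Xrcc6. Before division by length, the male WT means were 24.1 CPM for Xrcc5 and 16.5 for Xrcc6. In females the ratio was 2.23 in WT and 2.51 in SIRT6-tg, a difference of 0.17 (exact permutation p = 0.0169, adjusted p = 0.192). Ratios were tested for 10 pairs of partner genes in each sex, which makes 20 tests, and none passed after adjustment. The pairs were chosen after the values were seen.

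Apex1 (ENSMUSG00000035960.13, chromosome 14, 50924968 to 50927139, plus strand), the AP endonuclease whose product also acts as a redox factor, ranged from 5.34 to 9.73 CPM with a median of 7.18 in male WT, and from 8.43 to 13.0 with a median of 9.45 in male SIRT6-tg. Only the highest WT male reached into the SIRT6-tg range, above 4 of its 7 libraries. The log2 fold change was 0.50 (SE 0.14, 95% interval 0.21 to 0.78, adjusted p = 0.00967), a 1.41-fold change, and 0.44 relative to the median of all genes. After scaling by library size alone it was 0.21 (adjusted p = 0.296), which is 0.43 relative to that median. In females the direction was opposite but not called, with 4.84 to 7.72 CPM in WT, 4.29 to 7.47 in SIRT6-tg and a log2 fold change of −0.21 (95% interval −0.50 to 0.08).

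In edgeR Apex1 was also the only repair gene whose genotype effect differed between the sexes (1 of 40, against 5.05% of all genes tested), and DESeq2 added Xrcc6. Of the calls among all genes 23.9% were higher in males, and 1.40% without TMM factors. The male effect exceeded the female effect by 0.71 on the log2 scale (SE 0.20, 95% interval 0.31 to 1.11, adjusted p = 0.0306). It was lost under upper-quartile scaling (adjusted p = 0.0573), with library size alone (0.188) and in 9 of the 28 fits without 1 library (up to 0.0706, difference 0.62 to 0.69). These were the fits without replicate 4 of male WT, 6 or 7 of male SIRT6-tg, 2 or 4 of female WT and 3, 4, 5 or 7 of female SIRT6-tg. The gene is hard to count, because 61.7% of its exon bases are shared with Pip4p1 on the opposite strand, the library kit does not mark strand, and the strand setting of the counting is not stated. Pip4p1 itself was at 24.4 CPM in male WT and 27.1 in male SIRT6-tg (log2 fold change 0.15, adjusted p = 0.208), and at 22.1 CPM in both female groups.

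Palb2 (ENSMUSG00000044702.13, chromosome 7, 122107262 to 122132985, minus strand) ranged from 0.853 to 1.24 CPM with a median of 1.07 in male WT, and from 0.349 to 1.04 with a median of 0.699 in male SIRT6-tg. In 5 of 7 SIRT6-tg males it was below all WT males. These levels rest on 9 to 50 reads per library. The log2 fold change was −0.57 (SE 0.21, 95% interval −0.99 to −0.15, adjusted p = 0.0470), and −0.63 relative to the median of all genes under TMM and under library size alone. The call was at the threshold and was lost without a filter (adjusted p = 0.0862), after each library's trend with exon length and base composition was removed (0.0509), and in 13 of the 28 fits without 1 library (up to 0.114). These were the fits without replicate 2, 3, 4 or 7 of male WT, 1, 3, 4, 5 or 6 of male SIRT6-tg, 3 or 7 of female WT and 3 or 4 of female SIRT6-tg. In females it ranged from 0.654 to 1.46 CPM in WT and from 0.658 to 1.18 in SIRT6-tg (log2 fold change −0.12, 95% interval −0.53 to 0.29).

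**Figure D2:**
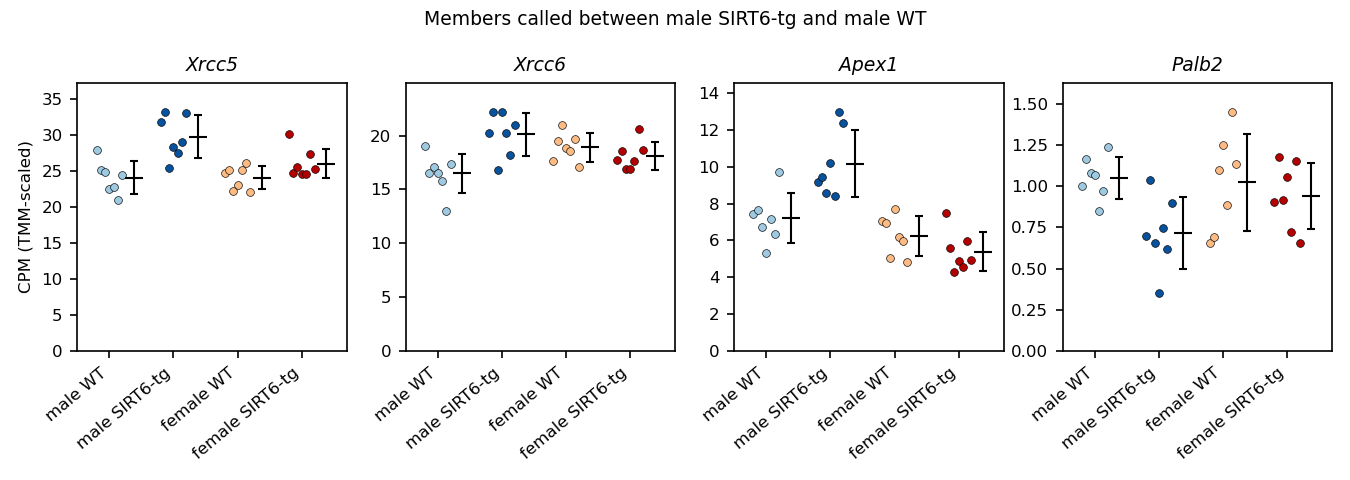
CPM (TMM-scaled, linear axis from 0) of the 4 repair genes called between male genotypes, 1 point per library, with the group mean and SD (n = 7) beside the points. Male SIRT6-tg libraries lie higher for Xrcc5, Xrcc6 and Apex1 and lower for Palb2 with overlapping ranges, while the female genotypes overlap throughout. After scaling by library size alone only Palb2 stayed called, and the Xrcc6 fold change turned to −0.00030.

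Brca1, which encodes a ubiquitin ligase that directs breaks to recombination, ranged from 1.43 to 3.79 CPM with a median of 2.44 in male WT, and from 0.955 to 2.87 with a median of 1.61 in male SIRT6-tg, and it was not called in edgeR (log2 fold change −0.49, 95% interval −0.92 to −0.07, adjusted p = 0.0935) or DESeq2 (0.0511). With library size alone it was called. Beside these genes, the summed level of the 16 proliferation genes lay between 52.5 and 149 CPM (median 74.0) in male WT and between 36.01 and 52.98 (median 44.9) in male SIRT6-tg. In females it lay between 39.1 and 58.1 CPM in WT and between 40.7 and 49.5 in SIRT6-tg. Mki67 was at 8.99 CPM in male WT and 1.83 in male SIRT6-tg. The part of dividing cells in the Palb2 and Brca1 values was not tested. Brca2, which loads the recombinase, and Rad52 gave male log2 fold changes of 0.15 and −0.02, neither called.

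Of the other end-joining genes, Xrcc4, Lig4, Nhej1 and Prkdc gave male log2 fold changes between 0.06 and 0.19, and none was called. Prkdc, whose product is a known partner of SIRT6 at breaks, ranged from 3.96 to 8.83 CPM in male WT and from 4.91 to 10.4 in male SIRT6-tg (log2 fold change 0.06, 95% interval −0.33 to 0.44). In females it ranged from 3.76 to 8.88 CPM in WT and from 4.58 to 9.33 in SIRT6-tg (0.13, 95% interval −0.25 to 0.52). The groups overlapped almost completely, and a change of 1.41-fold was within the female interval.

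None of the 9 genes of break sensing and signalling was called. Nbn came closest, with 16.6 to 25.8 CPM (median 22.1) in male WT and 23.9 to 29.3 (median 25.0) in male SIRT6-tg, a log2 fold change of 0.27 (SE 0.11, adjusted p = 0.0640). It was called with the filter of filterByExpr and without 1 of the male WT libraries (replicate 5). Its partners in the break-sensing complex, Rad50 (0.09) and Mre11a (0.03), had 95% intervals within ±0.5. Atm and Atr gave −0.15 and −0.12, but the interval of Atm, the gene with the widest spread between libraries of a group, ran from −0.94 to 0.64. Trp53bp1 and Rif1, whose products protect break ends from resection, gave −0.17 and 0.04, and the ubiquitin ligase genes Rnf8 and Rnf168 gave 0.27 and 0.23. Exons of Trp53bp1 and Rnf8 are shared with neighbouring genes over 15.0% and 13.2% of their bases.

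In base excision and single-strand break repair, 1 of 9 genes was called (Apex1). Polb had 10.7 to 21.4 CPM (median 15.1) in male WT and 14.1 to 28.3 (median 20.4) in male SIRT6-tg, and missed the threshold (log2 fold change 0.40, SE 0.15, adjusted p = 0.0544). The glycosylase genes Neil1 and Ogg1 gave 0.29 and 0.19, and Ung, which removes uracil, gave −0.14. Mutyh, which removes adenine opposite oxidised guanine and whose product binds SIRT6, ranged from 0.300 to 0.892 CPM in male WT and from 0.311 to 0.776 in male SIRT6-tg (log2 fold change −0.01, 95% interval −0.52 to 0.49). In females it lay between 0.337 and 0.642 in WT and between 0.228 and 0.625 in SIRT6-tg (log2 fold change 0.0048, 95% interval −0.53 to 0.54). These levels rest on 6 to 36 reads per library, and smaller changes were not detectable at this depth. The scaffold gene Xrcc1 (0.16), its partner ligase gene Lig3 (0.23) and the strand-break sensor gene Parp2 (−0.05) were not called. Exons of Lig3 and Ogg1 are shared with neighbouring genes over 25.1% and 10.6% of their bases.

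None of the 10 genes of nucleotide excision repair was called in males. Xpc, which detects helix distortion, was the only one of the 40 genes whose male ranges did not overlap, from 22.1 to 25.7 CPM in WT and from 26.0 to 29.3 in SIRT6-tg, against 6.98% of all genes tested. It is singled out here after its values were seen. Its log2 fold change was 0.18 (SE 0.07, adjusted p = 0.0859), and it was called after removal of the trend with length and base composition. Xpa ranged from 13.9 to 22.6 CPM in male WT and from 15.9 to 34.05 in male SIRT6-tg (log2 fold change 0.41, SE 0.17, adjusted p = 0.0802). The nuclease partners Ercc1 and Ercc4 gave 0.34 and −0.07, the 3′-side nuclease gene Ercc5 gave 0.15, and the transcription-coupled repair gene Ercc6 gave 0.01.

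Ddb1 and Ddb2 encode the UV-damage sensor. Ddb1 ranged from 195 to 233 CPM (median 205) in male WT and from 220 to 258 (median 232) in male SIRT6-tg, and with the most precise estimate among the 40 its log2 fold change was 0.14 (SE 0.07, 95% interval −0.00 to 0.29, adjusted p = 0.159). Ddb2, whose product is a substrate of SIRT6, ranged from 1.01 to 3.44 CPM in male WT and from 2.33 to 3.16 in male SIRT6-tg (log2 fold change −0.04, adjusted p = 0.902). In females Ddb2 ranged from 3.05 to 4.34 CPM in WT and from 3.40 to 4.88 in SIRT6-tg (0.22, 95% interval −0.11 to 0.54). Ddb2 shares 23.8% of its exon bases with Acp2 on the opposite strand, whose group means ran from 51.5 to 56.4 CPM. The mismatch repair genes Msh6 and Pms2 gave 0.05 and 0.15 in males.

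In females, 0 of the 40 repair genes were called by edgeR, against 0.0278% of all genes tested, which are 6 genes. At an unadjusted p under 0.05 the number was again 0, against 5.62% of all genes, and DESeq2 called 0 of them, against 0.259% of all genes. No repair gene had ranges that did not overlap in females, against 0.0834% of all genes. The largest absolute log2 fold change was 0.37, that of Ung, with 8.31 to 16.0 CPM in WT and 6.00 to 12.3 in SIRT6-tg. For 29 of the 40 genes the 95% interval lay within ±0.5, and the median log2 fold change was −0.02, against 0.00257 for all genes tested.

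**Figure D3:**
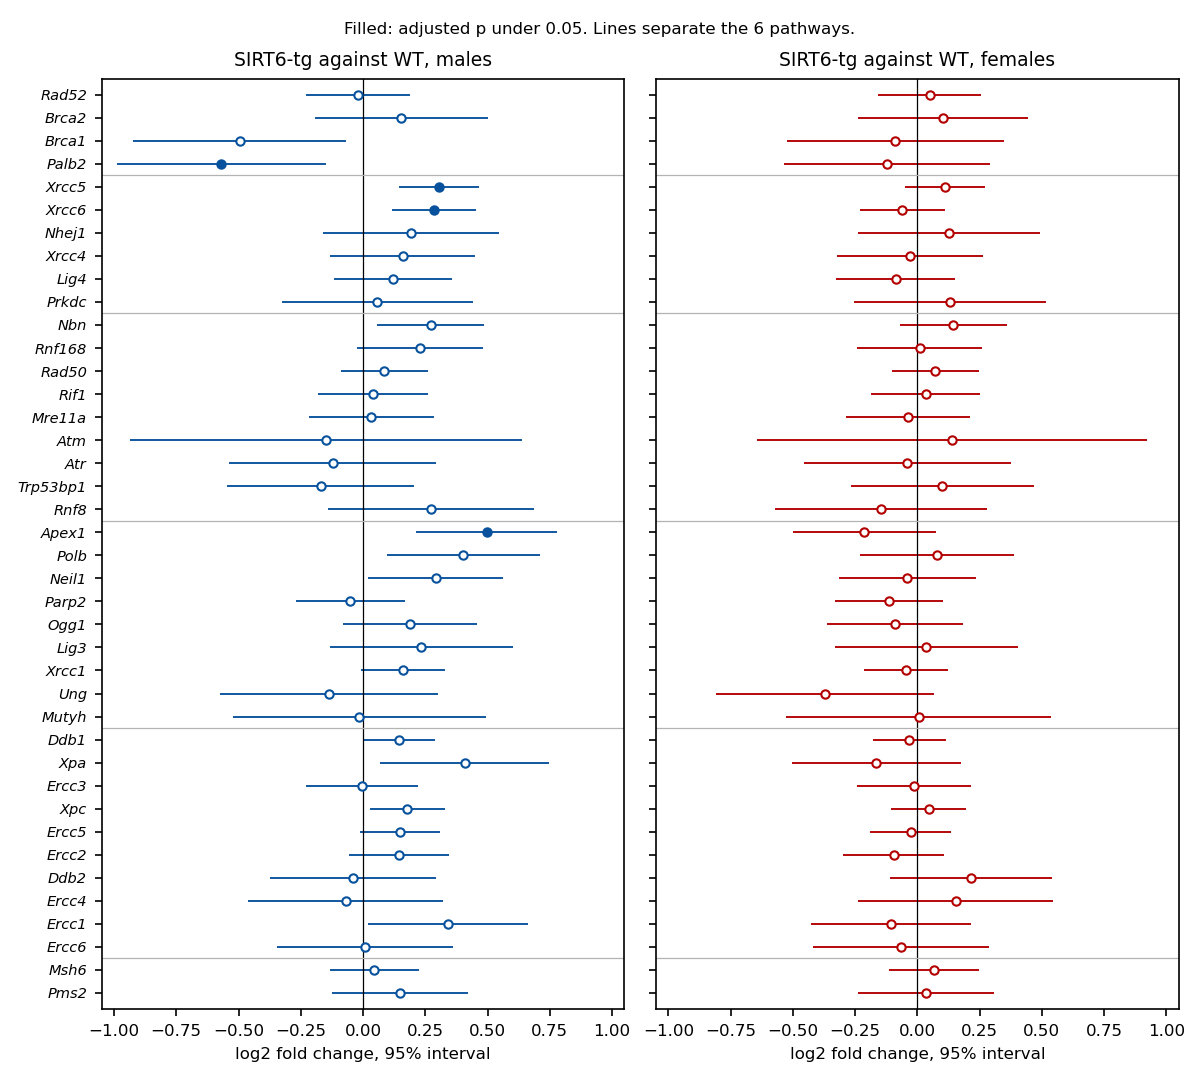
Log2 fold change of SIRT6-tg against WT with its 95% interval for the 40 repair genes, males on the left and females on the right, in order of route and level. Filled points mark the 4 genes called in males, and in females no gene is called. Values are relative to TMM scaling, and with library size alone only 6 of 40 male values were positive.

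Between WT males and WT females, 2 of 40 repair genes were called, against 12.4% of all genes tested. Of all these calls 53.8% were higher in males, and 86.8% without TMM factors. Ercc3, which encodes the XPB helicase of the transcription factor TFIIH (chromosome 18, 32240300 to 32270151), was higher in males, with 15.8 to 24.5 CPM (median 20.9) against 9.98 to 16.2 (median 13.8) in females. The log2 difference was 0.60 (SE 0.11, adjusted p = 0.000354), and 1 male library lay within the female range. The call held in all 8 alternative settings that gave a value and in all 28 fits without 1 library. SIRT6-tg libraries had 17.2 to 23.1 CPM in males and 9.79 to 15.6 in females, and the log2 fold change between genotypes was −0.00 in males and −0.01 in females. Its helicase partner in TFIIH, Ercc2, gave 0.25 (adjusted p = 0.106, DESeq2 0.0354) and shares 42.7% of its exon bases with other genes.

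Brca2 (ENSMUSG00000041147.10, chromosome 5, 150522630 to 150570329, plus strand) was lower in males, with 2.53 to 6.33 CPM (median 4.47) in male WT against 4.96 to 9.73 (median 7.07) in female WT. The ranges overlapped. The log2 difference of male against female was −0.61 (SE 0.17, adjusted p = 0.0150), and after scaling by library size alone it was −0.43 and was not called (adjusted p = 0.0943). In SIRT6-tg it ranged from 3.92 to 6.08 CPM in males and from 4.57 to 8.81 in females. The 16 proliferation genes went the other way between WT sexes, with 13 higher in males and 0 lower.

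**Figure D4:**
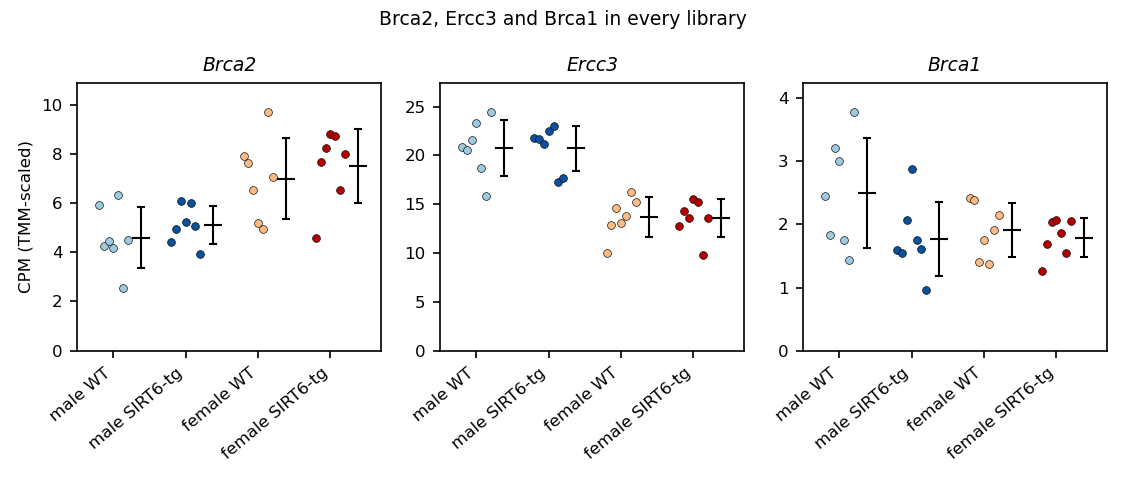
CPM (TMM-scaled, linear axis from 0) of Brca2, Ercc3 and Brca1 in every library, with the group mean and SD (n = 7) beside the points. Ercc3 is higher in both male groups than in both female groups, and Brca2 is lower in males, a call that was lost with library size alone. In the TMM-scaled fit of all libraries Brca1 was called in no comparison, and in males it was called with library size alone.

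Other repair genes, 112 in all, from the same routes and from direct reversal, translesion synthesis and the Fanconi anaemia route, are given for context from lists that were chosen with earlier results of these data known. In males 13 of them were higher and 15 lower in SIRT6-tg, where 9.68% and 11.0% of all genes tested were. The median log2 fold change of the 112 was 0.09. With library size alone 0 were higher and 26 lower. Of all genes tested, that scaling called 4294 in males, and 210 of these were higher. The higher calls in the end-joining and Fanconi lists were all lost under RLE and upper-quartile scaling too. The median relative to all genes was 0.04 with TMM factors and with library size alone. In homologous recombination 6 of 22 were lower and 2 higher. Eme1, a nuclease subunit, was at 0.285 CPM in male WT and 0.103 in male SIRT6-tg (log2 fold change −1.50, adjusted p = 0.00276), and the translocase gene Rad54l was at 0.654 and 0.281 (−1.23, adjusted p = 0.00285). The Fanconi anaemia list held 3 lower and 2 higher calls of 12, with Fanci at 0.425 and 0.0817 CPM (−2.35, adjusted p = 5.33e-05) and Fancl, the ubiquitin ligase of the route, at 7.97 and 10.3 (0.36, adjusted p = 0.0441, under RLE 0.0846). Eme1 and Fanci were near the floor in male SIRT6-tg, so the size of their change rests on few reads. Exon bases shared with other genes are 10.7% for Eme1, 15.4% for Rad54l, 16.0% for Fanci and 13.7% for Fancl. The checkpoint kinase gene Chek1 was at 1.03 and 0.465 CPM (−1.14, adjusted p = 4.95e-05), the only call among 15 other genes of break sensing.

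Among 17 other genes of base excision repair 3 were higher and 3 lower, with Neil3, a glycosylase of dividing cells, at 0.478 and 0.0840 CPM (−2.43, adjusted p = 3.36e-05), the replicative ligase gene Lig1 at 7.26 and 4.63 (−0.65, adjusted p = 0.00167) and the chromatin protein gene Hmgb1 at 17.3 and 21.3 (0.30, adjusted p = 0.00289). The Neil3 level in male SIRT6-tg was near the floor. Of 20 other genes of nucleotide excision repair 4 were higher and none lower, among them the TFIIH subunit gene Gtf2h3 (9.99 and 13.3 CPM, 0.41, adjusted p = 0.00231) and the XPC partner gene Rad23b (0.28, adjusted p = 0.0276, under RLE 0.0558). Of 8 other end-joining genes 2 were higher, among them Paxx (0.58, adjusted p = 0.0330, under RLE 0.0597), and 1 was lower, the polymerase theta gene Polq (−1.35, adjusted p = 0.00500). Translesion synthesis held 1 lower call of 9, Rad18 (−0.49, adjusted p = 0.0466). No gene was called among 5 other mismatch repair genes and 4 genes of direct reversal. Of 20 p53 target genes 7 were lower and 1 higher, and of 11 genes of nuclear partners of SIRT6 in repair 1 was lower and 1 higher. Over all genes tested, 9.68% were higher and 11.0% lower in males. In females none of the 112 was called, against 0.0278% of all genes, and 2 had an unadjusted p under 0.05, against 5.62%.

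**Figure D5:**
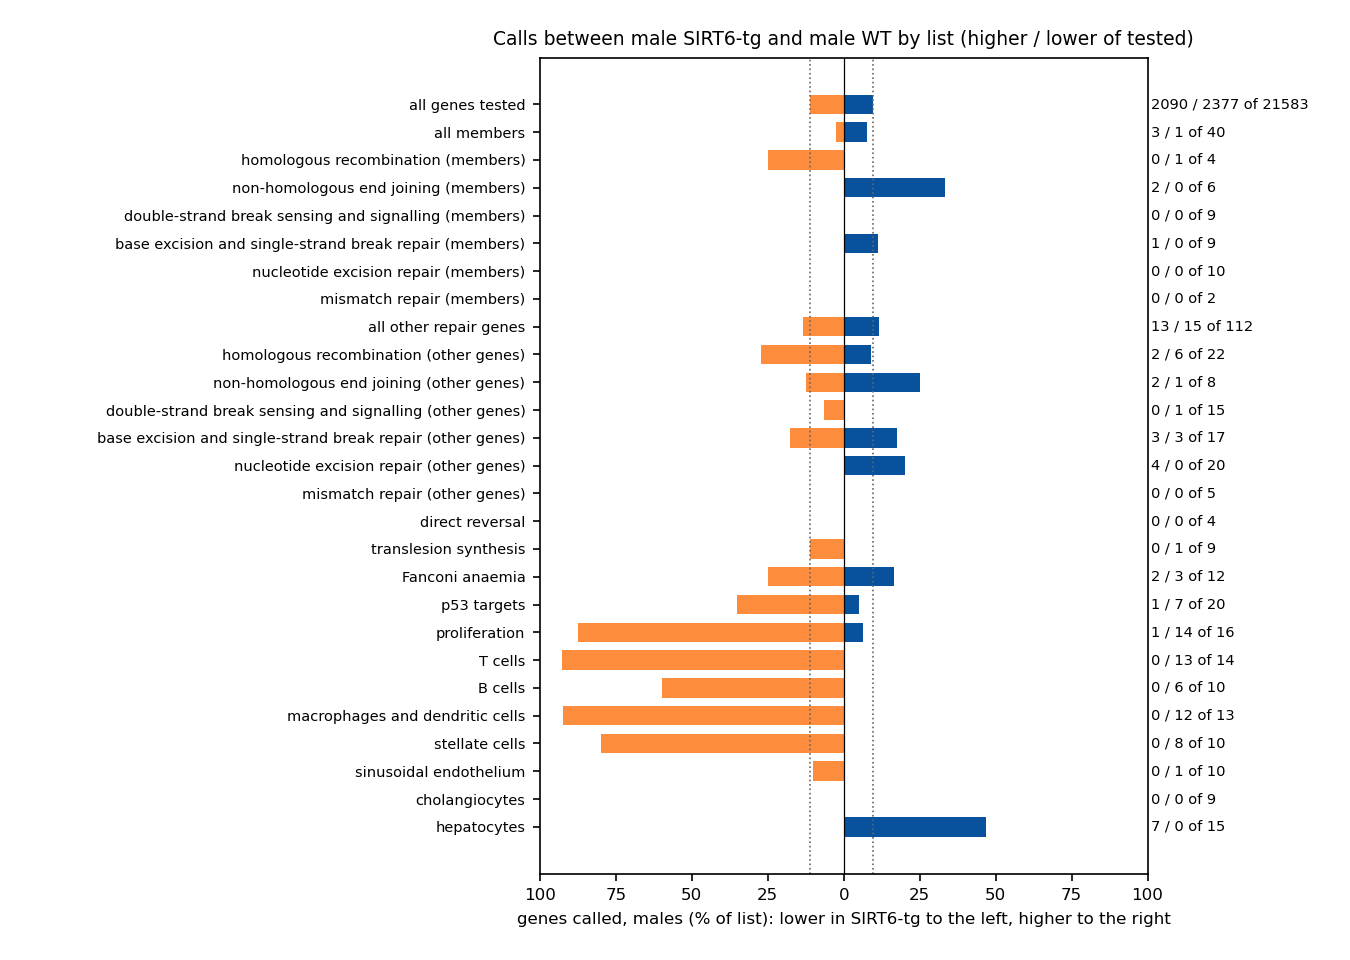
Share of each list called between male genotypes, with genes lower in SIRT6-tg to the left and higher to the right, in percent of the genes tested. Members are the 40 repair genes. The numbers give higher and lower calls of the genes tested, and dotted lines mark the shares over all genes (9.68% higher and 11.0% lower). The 40 repair genes lie inside both lines (3 higher, 1 lower). Under library size alone the same 40 held 0 higher and 3 lower calls, where 4294 of all genes were called and 210 of these were higher.

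Several measures moved with the male fold changes. Across the 40 genes, the male log2 fold change was lower for longer genes (Spearman's rho −0.512 with exon length, 0.285 with GC content), against −0.130 and 0.00167 over all genes tested. In females the same values were 0.110 and −0.387, and these describe genes that are measured in the same libraries and are not independent. After removal of these trends from each library, 6 of the 40 were called in males, against 23.5% of all genes. All 6 were higher, namely Xrcc5, Xrcc6, Apex1, Xpc, Xpa and Ddb1. Among all genes, that setting called 5081 in males, and 2497 of these (49.1%) were higher. Whether the 40 held more higher calls than this background was not tested. The male WT library of replicate 6 had the lowest value of its group for 16 of the 40 genes, more than any other library. Without it, 6 genes were higher (Xrcc5, Xrcc6, Apex1, Polb, Xpa and Rnf168) and 2 lower (Palb2 and Brca1). The share of all genes called in that fit is not given here, so these counts have no background beside them. Xrcc5, Xrcc6 and Apex1 were called in all 28 fits without 1 library.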

How the data were processed

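RNA was sequenced from 28 livers. According to the methods, the authors made single-end libraries with a kit that does not mark strand, aligned reads to mm10 with STAR 2.5.0a, counted uniquely mapped reads on Gencode genes with HTSeq, and deposited raw counts with no normalization. The strand setting of the counting is not given in the sources used here. Columns were matched to samples by name, with 0 left unmapped. Symbols, coordinates and exon lengths came from Gencode vM21 (GRCm38).

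Genes with a mean of at least 0.5 counts after DESeq2's size factors (21583) were tested with edgeR 4.0.16 (TMM, robust quasi-likelihood F-test, 4 groups in 1 fit) in R 4.3.3, with Benjamini-Hochberg adjustment over all of them and a threshold of 0.05. The test was checked on simulated data in which few genes changed, equally often in either direction. That check does not bear on the choice of scaling in males. Alternatives were RLE, upper-quartile and library-size scaling, the filter of filterByExpr, no filter, DESeq2 1.42.0, sexes fitted separately, a replicate block, removal of each library's smooth trend with exon length and base composition, and each library left out.

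Members and gene lists were chosen with earlier results of these data known, and motifs, partner pairs and relations with Atm after values were seen. Named genes are those called in any comparison, the 3 highest and 3 lowest per length, 4 known partners of SIRT6 and, per list, up to 3 other repair genes with the lowest adjusted p in males. Some genes that this rule picks are not reported here. p-values measure the spread between the labelled samples, and limits from counts cover counting error only.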

Additional observations from a re-analysis of the deposited data

Results flagged for a closer look

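Of 52 combinations of a named gene (Sirt6 included) and a group, 6 held a library far from the other 6, where chance gives about 1 in 20. In male WT the library of replicate 6 was low for Ddb2 (1.01 CPM, next lowest 2.71), Prkdc (3.96, next 7.26) and Sirt6 (1.69, next 2.65), and the library of replicate 7 was high for Mutyh (0.892 CPM, next 0.552). In female WT the library of replicate 1 was high for Sirt6 (6.21 CPM, next 2.94), and in female SIRT6-tg the library of replicate 5 was high for Ddb1 (235 CPM, next 194).

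By the interaction test, the effect of genotype was not the same in both sexes for Apex1 (0.71 on the log2 scale, male minus female, adjusted p = 0.0306) and for Sirt6 (3.29, adjusted p = 6.96e-06), both from edgeR.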

How the results depend on the processing

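The number of repair genes called in females was 0 in all 9 alternatives and all 28 fits without 1 library. Scaling by library size alone gave 0 higher and 3 lower in males, a median log2 fold change of the 40 of −0.14, a log2 fold change of −0.00030 for Xrcc6, 0 genes that differed in effect between the sexes and 10 between WT sexes. The median male log2 fold change over all genes was −0.22 under library size alone and 0.06 under TMM. Removal of the trend on length and GC content gave 6 higher, 0 lower, 2 that differed between the sexes and 4 between WT sexes. Of all genes tested, that setting called 5081 in males (2497 of them higher), 1388 between the sexes and 2853 between WT sexes. No filter gave 0 lower. For the difference between the sexes, upper-quartile scaling gave 0, and the filter of filterByExpr and DESeq2 gave 2 each. Among all genes, these settings called 1083, 1235 and 1536. The cause of these moves was not tested.

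Replicate numbers did not pair the libraries (correlation of same-numbered deviations −0.28 to 0.27). With the replicate block, 4 repair genes were higher and 0 lower in males, since Polb passed and Palb2 did not (adjusted p = 0.0665).

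Without 1 library, 3 to 6 genes were higher and 0 to 2 lower in males, 0 to 2 differed between the sexes, 2 differed between WT sexes, and the male median lay between 0.10 and 0.15. The shares of all genes called in these fits are not given here. Depth limits Palb2 (9 to 50 reads a library) and Mutyh (6 to 36), and among the other repair genes it also limits Fanci, Neil3 and Eme1.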

Other observations

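Atm, the kinase gene with the widest spread, split the libraries of every group into 2 sets. No library lay between 6.30 and 9.41 CPM, and 10 libraries lay below this gap, 2 of male WT, 3 of male SIRT6-tg, 3 of female WT and 2 of female SIRT6-tg, with 18 above it. Within the sets, taking each library's deviation from the mean of its group and set, Atm was compared with the 39 other repair genes, which makes 78 relations adjusted together, and 9 genes passed in the 10 libraries, 6 in the 18, and 3 in both. In the permutations, values moved freely among the libraries of a set, although centring ties the deviations of a group to each other. A group of 2 gives mirrored deviations. The permutation p-values here and below, also adjusted, are therefore too small, most of all in the 10 libraries. The genes that passed are given as a description only. The sign of r was not always the same, and Xrcc6 gave r of 0.65 in the 10 (rho 0.673, permutation p = 0.0437 and 0.0391, adjusted p = 0.142, without the 2 farthest 0.154) and −0.607 in the 18 (rho −0.595, permutation p = 0.00764 and 0.0103, adjusted p = 0.0428, without the 2 farthest −0.56).

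Atr rose with Atm (r = 0.79 in the 10, rho 0.73, permutation p = 0.00768 and 0.0194, adjusted p = 0.0428, and r = 0.61 in the 18, rho 0.60, permutation p = 0.00754 and 0.0106, adjusted p = 0.0428). Without the 2 libraries farthest from the median of Atm, r was 0.70 and 0.42. Polb fell as Atm rose (r = −0.90 in the 10, rho −0.93, permutation p = 9.0e-05 and 0.00034, adjusted p = 0.00702, and r = −0.64 in the 18, rho −0.59, permutation p = 0.00459 and 0.0110, adjusted p = 0.0394), with r of −0.90 and −0.52 without the 2 farthest. Rnf8 also fell (r = −0.81 in the 10, rho −0.85, permutation p = 0.00505 and 0.00295, adjusted p = 0.0394, and r = −0.65 in the 18, rho −0.62, permutation p = 0.00343 and 0.00676, adjusted p = 0.0394), with r of −0.46 and −0.69. The genes are measured in the same libraries, and the exon lengths are 10338 bases for Atm, 23629 for Atr, 3940 for Polb and 11703 for Rnf8. The part of RNA quality or cell content in these relations was not tested.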
